A study of Mus musculus with 6 samples.

Results

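A group of 60 genes was read in all 3 libraries of set B and was close to silent in all 3 libraries of set A, out of 55401 genes in a table of RNA-seq counts from sorted mouse cells. A gene entered the group with a mean of at least 50 CPM over set B (the count divided by the library's total count and scaled to 1e+06), at least 10 CPM in each B library and under 1 CPM in each A library. In all 67 genes met these limits. The group leaves out by name 7 of them that mark basophils, neutrophils or an interferon response. These values chose the genes, so the difference between B and A is a description here. Calls by standard tests are given further on as counts, and nothing is read from them. "Off" means under 1 CPM, which was 46.1 to 63.96 counts in these libraries, and not zero.

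The cells came from peripheral blood of wild-type mice. MC903, an analogue of vitamin D that brings on dermatitis resembling the atopic disease, was put on both ears (2 nmol in 10 µL of ethanol) each day between day 0 and day 6, and controls received ethanol alone. The labels name the sets only A and B (3 libraries each) and do not say which one received MC903. Strain, age and sex are not given. The sort kept live CD45+ cells without lineage markers that carried CD49b and either FcεRIα or IgE, and libraries were made with Smart-seq2, which amplifies full-length cDNA from small inputs. The sample labels give blood as the tissue while the design text gives ear skin, and the descriptions also name 10x Genomics. The protocol speaks of pooled RNA, and the animals behind each library are not named, so p-values measure the spread between libraries, which may be technical.

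Basophils are rare blood granulocytes that bind IgE through the receptor FcεRI and release histamine, proteases, lipid mediators and cytokines such as IL-4. Their identity rests on a modest number of lineage genes, among them Mcpt8, Prss34, Cpa3, Cd200r3 and Fcer1a. Most other transcripts of a basophil serve tasks that nearly every cell performs, such as splicing, respiration and vesicle traffic. When cDNA is amplified from little RNA, a transcript of low abundance can be missed in a library, and its count is then near zero although the cells made it. Promoters of broadly expressed genes tend to be rich in the dinucleotide CpG, and those of genes used in few cell types tend to be poor in it.

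The promoter windows below show this property of sequence. The limits on CPM did not use it, but most of the genes left out by name were CpG-poor. Mfap3 and Prdx3 stand for the many CpG-rich genes of the group, Clec5a and Asprv1 are the CpG-poorest of the genes that could be matched, and Fcer1a, the IgE-binding chain left out by name, is given beside them. Each window holds 300 bases around a transcript start in RefSeq on GRCm38.p6, 5′ to 3′ along the gene's strand, with every CpG in capitals. Mfap3 lies at chr11:57518415-57518714 on the plus strand and holds 31 CpG. Prdx3 lies at chr19:60874489-60874788 on the minus strand and holds 15. Clec5a lies at chr6:40585756-40586055 on the minus strand and holds 3. Asprv1 lies at chr6:86627924-86628223 on the plus strand and holds 4. Fcer1a lies at chr1:173227180-173227479 on the minus strand and holds 1.
Mfap3: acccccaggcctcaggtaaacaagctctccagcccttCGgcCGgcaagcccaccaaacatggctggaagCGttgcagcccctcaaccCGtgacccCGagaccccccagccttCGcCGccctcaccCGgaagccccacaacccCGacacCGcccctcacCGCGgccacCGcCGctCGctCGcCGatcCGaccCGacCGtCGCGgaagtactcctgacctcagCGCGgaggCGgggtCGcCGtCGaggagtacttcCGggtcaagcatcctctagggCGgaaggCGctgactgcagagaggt
Prdx3: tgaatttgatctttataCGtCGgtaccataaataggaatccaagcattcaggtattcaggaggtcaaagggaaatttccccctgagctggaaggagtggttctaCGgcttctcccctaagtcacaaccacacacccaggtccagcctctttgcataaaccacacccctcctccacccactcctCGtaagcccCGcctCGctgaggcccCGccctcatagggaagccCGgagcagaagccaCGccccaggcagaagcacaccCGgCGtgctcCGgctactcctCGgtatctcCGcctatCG
Clec5a: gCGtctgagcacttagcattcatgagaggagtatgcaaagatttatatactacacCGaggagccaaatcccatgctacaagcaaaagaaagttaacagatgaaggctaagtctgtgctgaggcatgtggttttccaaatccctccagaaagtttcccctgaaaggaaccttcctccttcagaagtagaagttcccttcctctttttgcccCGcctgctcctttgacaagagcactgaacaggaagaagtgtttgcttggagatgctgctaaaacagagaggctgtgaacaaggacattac
Asprv1: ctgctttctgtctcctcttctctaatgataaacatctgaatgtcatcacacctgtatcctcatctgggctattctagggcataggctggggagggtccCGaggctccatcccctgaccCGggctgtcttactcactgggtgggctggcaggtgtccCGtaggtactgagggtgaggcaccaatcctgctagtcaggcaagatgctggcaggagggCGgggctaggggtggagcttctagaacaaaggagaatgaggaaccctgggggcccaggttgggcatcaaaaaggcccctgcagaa
Fcer1a: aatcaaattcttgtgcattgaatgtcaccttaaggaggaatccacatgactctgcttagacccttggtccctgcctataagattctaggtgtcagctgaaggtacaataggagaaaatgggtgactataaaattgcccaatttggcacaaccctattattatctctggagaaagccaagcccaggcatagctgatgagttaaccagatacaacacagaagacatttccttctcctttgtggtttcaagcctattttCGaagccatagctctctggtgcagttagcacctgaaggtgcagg

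RefSeq windows were found for 49 of the 60 genes. The observed CpG number divided by the number expected from base composition had a median of 0.797 over these 49 genes, against 0.390 over the 27025 genes of the promoter table. A ratio of at least 0.6 was found in 42 of the 49 (85.7%), in 201 of 233 genes of ubiquitous cell machinery that were on in every B library (86.3%), in 4 of 24 genes of a basophil list that were on in every B library (16.7%) and in 35.5% of the whole table. The CpG-poor exceptions under 0.3 were Asprv1 (0.166), Clec5a (0.192), Slc7a11 (0.271) and Arsa (0.274). Of the 7 genes left out by name, only Adora2b exceeded 0.6, and the other 6 ran from 0.0700 to 0.213. Leaving these 7 out raised the share of CpG-rich genes in the group above that of all genes meeting the limits. Of all genes on in every B library 78.7% had a window, which is less complete than the sets above. Among these the median was 0.760 and 71.6% reached 0.6, so a CpG-rich promoter was common to most genes on in B and is not particular to the 60.

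**Figure D1:**
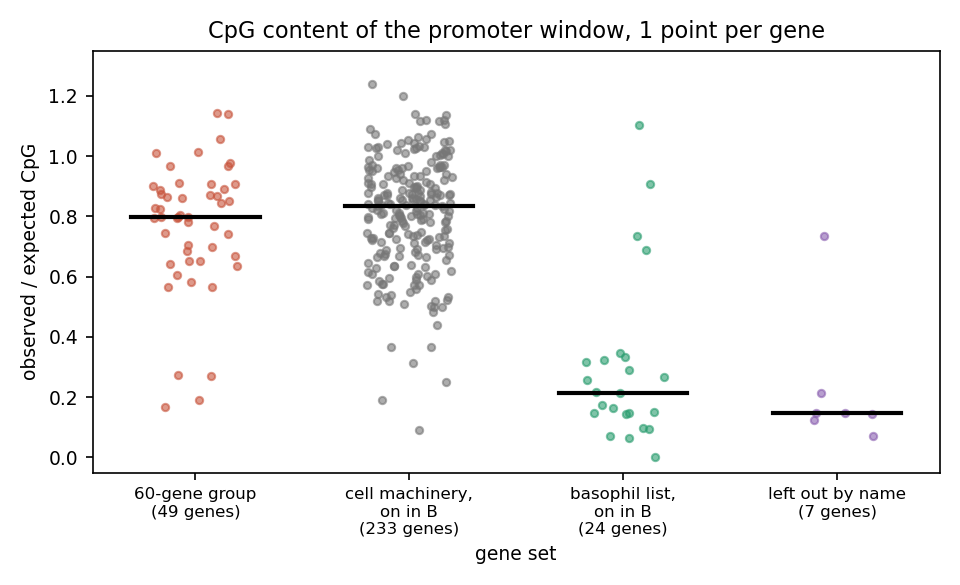
Observed over expected CpG (no unit) in the promoter window of each gene, 1 point per gene, with the median as a black bar, for the 60-gene group, cell machinery on in every B library, the basophil list on in every B library (5 of whose genes are also among those left out by name) and the genes left out by name. The medians are 0.797, 0.833, 0.215 and 0.149.

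Short motifs were searched on both strands of the same windows. AGATAA, a form of the site bound by GATA factors, was in 2 of the 49 windows (4.08%), in 5 of the 7 left out by name (71.4%), in 6 of 24 of the basophil list (25%), in 7.76% of genes on in every B library and in 12.7% of all promoter genes. Leaving out those 7 by name lowered the share with AGATAA in the group. TGACGTCA, the full cyclic AMP response element, was in 3 of 49 (6.12%), those of Clcn4, Fam50a and Stxbp3, in 4.01% of genes on in every B library and in 2.03% of all promoter genes. TGACG, its shorter form, which every full element also holds, was in 15 of 49 (30.6%), in 42.9% of the machinery, in 38.6% of genes on in every B library and in 23.0% of all promoter genes. For genes with several windows the CpG ratio is their mean and a motif counts if any window holds it, and a match of letters does not show a bound site.

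Before the values, the libraries themselves stood apart in ways that bear on them. Total counts were 46137963 to 63956911 in the 6 libraries. The protocol states a much smaller number of reads, and the reason for the difference is not given. In set A 9242, 9845 and 11281 genes had at least 1 count in replicates 1, 2 and 3, and in set B 11141, 12176 and 14066. Fcer1a, which the sort gate selects for, had 4, 0 and 0 counts in set A, against 10736, 5584 and 2681 in set B. Itga2, which encodes CD49b, had 0 counts in all A libraries and in B replicate 3, and 696 and 1887 counts in B replicates 1 and 2. The A libraries thus lack a defining transcript of the cells they are labelled as, and B replicate 3 lacks Itga2. In bulk libraries such as these, fewer cells of a type and less RNA per cell cannot be told apart. Ptprc, which encodes CD45, was at 571, 905 and 743 CPM in set A, against 561, 625 and 532 CPM in set B.

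The 60 genes together held 347, 318 and 415 counts in A replicates 1, 2 and 3, against 301907, 278163 and 190237 in the B replicates. Their summed share of all counts was 0.607%, 0.470% and 0.297% in B replicates 1, 2 and 3. B replicate 3 was the lowest in both readings. Mean CPM in B ran from 50.4 to 133 over the group, with a median of 68.4, and 49 of the 60 genes were under 100 CPM. In A, 60 of the 180 values were 0 counts, 4 were 1 to 3 counts and 116 were 4 counts or more, with 44 as the highest. Only Kbtbd4, Acss1, Gpd2 and Galk1 had no count in any A library, and 21 genes had counts in all 3. The mean level in A was a median of 0.133% of the mean level in B, against 0.102% for the 7 genes left out by name and 0.168% for the mirrored genes described further on.

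**Figure D2:**
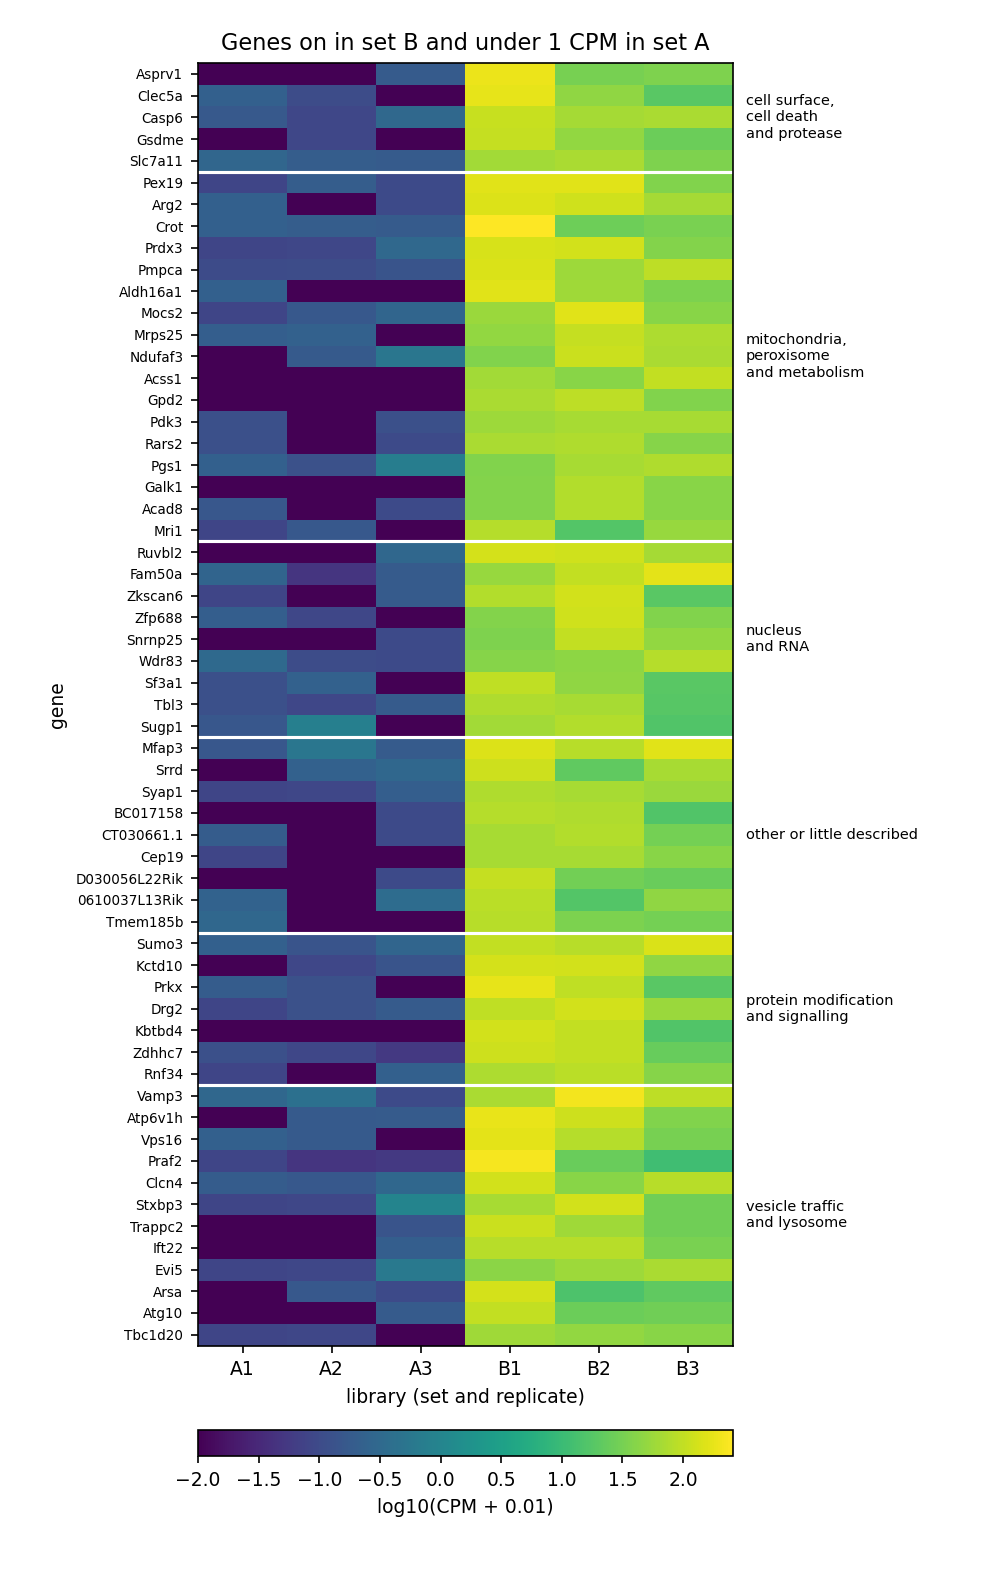
Level of 59 of the 60 genes (rows, grouped by role) in each of the 6 libraries (columns), as log10(CPM + 0.01). Every A value is under 1 CPM and every B value is at or above 11.3 CPM, as the choice of genes requires, and B replicate 1 holds the highest value for 34 of the genes drawn.

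In edgeR's quasi-likelihood test over 9196 genes, 0 of the 60 passed an adjusted p under 0.05, where 0.0217% of all genes were called higher in B. At an unadjusted p under 0.05 all 60 were higher in B, against 5.05% of all genes. DESeq2 called 59 of the 59 that it gave an adjusted p (12% of all genes, 1116 of 9270, were called higher and 1.10% lower) and limma-voom called 34 of 60 (2.12%). Since the same contrast chose the genes, nothing is read from these counts.

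Genes of mitochondria, peroxisomes and metabolism were the most numerous, with 17 of the 60. Pex19 (ENSMUSG00000003464), a carrier that brings membrane proteins to peroxisomes, was at 0.0726, 0.189 and 0.0867 CPM in set A, against 163, 161 and 37.8 CPM in set B. Arg2 (ENSMUSG00000021125), the mitochondrial arginase, was at 0.218, 0 and 0.0867 CPM in set A, against 150.0, 122 and 65.9 CPM in set B. Both were lowest in replicate 3 within B. Crot, a peroxisomal carnitine acyltransferase, was at 0.218, 0.189 and 0.173 CPM in set A, against 256, 27.4 and 33.6 CPM in set B, so B replicate 1 carried most of its mean. Prdx3, a mitochondrial peroxidase that removes hydrogen peroxide, was at 0.0726, 0.0757 and 0.303 CPM in set A, against 138, 130.1 and 38.4 CPM in set B. Pmpca, a subunit of the protease that trims imported mitochondrial proteins, was at 0.0907, 0.0946 and 0.130 CPM in set A, against 144, 58.3 and 93.3 CPM in set B. The other subunit of that protease, Pmpcb, was at 0, 0 and 160 CPM in set A, against 51.3, 31.5 and 13.7 CPM in set B, so a single A library held it at a level above all B libraries.

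Pdk3, a kinase that restrains pyruvate dehydrogenase, was the steadiest of the 60 within B, at 57.5, 69.1 and 68.5 CPM (65.0 ± 6.55, SD, n = 3), and was at 0.109, 0 and 0.108 CPM in A. Its relatives Pdk1 and Pdk2 were unsteady in both sets: Pdk2 was at 163, 0.0757 and 0 CPM in set A, against 37.6, 0.271 and 11.4 CPM in set B. Acss1, which makes mitochondrial acetyl-CoA from acetate, was at 61.7, 42.4 and 101 CPM in B. Gpd2, the mitochondrial glycerol-3-phosphate dehydrogenase, was at 70.6, 93.7 and 37.8 CPM in B. Galk1, the galactokinase, was at 39.6, 79.1 and 42.3 CPM in B. All 3 had 0 counts in every A library, where a floor of 3 counts would be 0.0544 to 0.0650 CPM if each count were a separate fragment, which is not known. Mrps25, of the mitochondrial ribosome, averaged 76.6 ± 28.0 CPM in B, and Ndufaf3, an assembly factor of respiratory complex I, 74.3 ± 39.4 CPM (SD, n = 3 each). Mocs2, Aldh16a1, Rars2, Pgs1, Acad8 and Mri1 complete this set, with B means of 50.9 to 86.9 CPM.

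Vesicle traffic and the lysosome accounted for 12 genes. Vamp3 (ENSMUSG00000028955), a SNARE of recycling endosomes that takes part in membrane fusion, was at 0.290, 0.416 and 0.0867 CPM in set A, against 70.8, 217 and 92.0 CPM in set B. Stxbp3, a Munc18 protein that regulates such fusion, was at 0.0726, 0.0757 and 0.954 CPM in set A, against 68.6, 126 and 27.9 CPM in set B, and its 44 counts in A replicate 3 were the most of any of the 60 genes in A. Exocytosis genes outside the group were read in both sets: Vamp8 was at 953, 921 and 428 CPM in set A, against 980, 971 and 1140 CPM in set B, and Stxbp2 at 566, 175 and 202 CPM in set A, against 319, 99.9 and 200 CPM in set B. The sets overlapped for Stxbp2. For Vamp8 the highest A value, 953 CPM, lay just under the lowest B value, 971 CPM, and no difference is read from this.

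Atp6v1h (ENSMUSG00000033793), the H subunit of the proton pump that acidifies lysosomes and granules, was at 0, 0.170 and 0.173 CPM in set A, against 179, 116 and 37.1 CPM in set B. Other subunits were read in both sets. Of those in the same sector, Atp6v1e1 was at 276, 202 and 320 CPM in set A, against 290, 233 and 238 CPM in set B, and Atp6v1a at 37.4, 150 and 40.3 CPM in set A, against 59.3, 0.913 and 43.4 CPM in set B. Thus Atp6v1a was under 1 CPM in a B library and in no A library. Atp6v1d went the other way, at 0.345, 95.0 and 112 CPM in set A, against 93.5, 295 and 232 CPM in set B. Over the 12 pump genes with a mean of at least 50 CPM in all libraries, 4 of 36 values were under 1 CPM in A and 1 of 36 in B. Atp6v1h itself gave 3 of the 4 in A, as the choice of genes requires, so these counts show no excess in A beyond it. Vps16, of the complexes that tether vesicles to lysosomes, was at 0.218, 0.170 and 0 CPM in set A, against 171, 82.4 and 31.6 CPM in set B. Praf2, a small membrane protein of the secretory pathway, had the widest spread in B, at 219.9, 24.7 and 11.3 CPM. Arsa, the lysosomal arylsulfatase A, was similarly uneven at 134, 15.0 and 21.7 CPM. Clcn4, Trappc2, Ift22, Evi5, Atg10 and Tbc1d20 make up the rest, with B means of 50.5 to 85.1 CPM, and Tbc1d20 was among the steadiest at 61.1, 48.7 and 41.7 CPM.

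Nuclear and RNA-processing genes numbered 9. Ruvbl2 (ENSMUSG00000003868), an ATPase of chromatin-remodelling complexes, was at 0, 0 and 0.282 CPM in set A, against 136, 125 and 66.4 CPM in set B. Its obligate partner in those complexes, Ruvbl1, was at 119, 162 and 116 CPM in set A, against 52.8, 194 and 49.1 CPM in set B, so the partner was present in every library. Sf3a1, of the SF3a splicing complex, was at 0.109, 0.227 and 0 CPM in set A, against 96.6, 47.7 and 19.1 CPM in set B. Within the same complex, Sf3a3 was at 184, 180 and 79.0 CPM in set A, against 159, 43.2 and 121 CPM in set B, while Sf3a2 was under 1 CPM in 2 libraries of each set. Subunits of this complex therefore differed from each other in which libraries read them. Fam50a, a nuclear protein linked to splicing, was at 0.254, 0.0378 and 0.173 CPM in set A, against 52.8, 101 and 172 CPM in set B, with its highest value in replicate 3, unlike most of the group. Sugp1, Snrnp25, Wdr83, Tbl3, Zkscan6 and Zfp688 had B means of 52.7 to 74.5 CPM.

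Protein modification and signalling held 8 genes. Sumo3 (ENSMUSG00000020265), a small modifier attached to other proteins, was at 0.218, 0.132 and 0.260 CPM in set A, against 101, 86.7 and 144 CPM in set B, and no other gene of the 60 had a higher lowest value in B. The related Sumo2 was at 215, 283 and 320 CPM in set A, against 415, 176 and 244 CPM in set B. The sets overlapped for Sumo2. Reads of closely related genes may have been divided between them in counting, which is not stated. Kctd10, an adaptor of a ubiquitin ligase, was at 0, 0.0757 and 0.130 CPM in set A, against 134, 127 and 48.4 CPM in set B. Prkx, a kinase of the cyclic AMP-dependent family, was at 0.181, 0.113 and 0 CPM in set A, against 173, 97.9 and 18.8 CPM in set B. The catalytic subunit Prkaca of the classical kinase was at 6.71, 17.7 and 33.6 CPM in set A, against 12.9, 0.609 and 0.532 CPM in set B, low in all libraries. Kbtbd4, Rnf34, Zdhhc7 and Drg2 had B means of 68.5 to 93.2 CPM.

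Cell surface, cell death and protease genes numbered 5. Clec5a (ENSMUSG00000029915), a lectin receptor of myeloid cells that signals through the adaptor Tyrobp, was at 0.218, 0.0946 and 0 CPM in set A, against 179, 46.8 and 18.7 CPM in set B. Tyrobp itself was at 4079, 4143 and 4532 CPM in set A, against 4597, 4313 and 6024 CPM in set B. The receptor was thus near silent in A beside an adaptor read strongly in all 6 libraries. Asprv1, a retroviral-like aspartic protease first known from skin, was at 0, 0 and 0.173 CPM in set A, against 188, 32.3 and 36.6 CPM in set B. Slc7a11, the cystine transporter, was at 0.272, 0.189 and 0.173 CPM in set A, against 62.8, 71.8 and 36.7 CPM in set B. Its heavy chain Slc3a2 was read in all libraries, at 73.1, 136 and 369 CPM in set A, against 252, 42.4 and 86.9 CPM in set B. Casp6, an executioner caspase, was at 0.163, 0.0757 and 0.303 CPM in set A, against 108, 64.1 and 71.9 CPM in set B. Gsdme, a pore-forming gasdermin, was at 105, 48.9 and 25.8 CPM in B and had 4 counts in all of A, in replicate 2. Asprv1 and Clec5a both peaked in B replicate 1.

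The remaining 9 genes are of other or little described function. Mfap3 (ENSMUSG00000020522), a membrane glycoprotein associated with microfibrils, was at 0.145, 0.530 and 0.173 CPM in set A, against 151, 85.2 and 164 CPM in set B (133 ± 42.3, SD, n = 3), the highest B mean of the 60 in CPM, which is not scaled for transcript length. Syap1, at 75.3, 68.2 and 55.9 CPM in B, and Cep19, a centrosome protein at 66.9, 66.8 and 42.1 CPM, were among the 4 steadiest. Srrd, Tmem185b, BC017158, CT030661.1, D030056L22Rik and 0610037L13Rik had B means of 50.4 to 68.5 CPM. Use of strand in counting is not stated, so reads of overlapping genes cannot be assigned with certainty.

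The order of the B libraries was not part of the selection. B replicate 1 was the highest library for 35 of 60 genes (58.3%), against 40.9% of the 3011 genes with a mean of at least 50 CPM and a minimum of 10 CPM in B. B replicate 3 was the lowest for 36 of 60 (60%), against 38.9%. The same held for the 7 genes left out by name, 6 of which were highest in replicate 1 and 5 lowest in replicate 3. Fcer1a, at 216, 94.4 and 41.9 CPM, and Mcpt8, at 1173, 872 and 478 CPM, also fell in this pattern. Of the 3011 genes, 1986 were at or above 1 CPM in every A library. Among these, B replicate 1 was highest for 37.3% and B replicate 3 lowest for 34.9%. Genes off in only part of A thus shared some of this order, which is not particular to the 60. The highest B value was a median of 3.17 times the lowest over the 60 genes and 2.07 times over the 3011. It was under 2 times for 12 of the 60 and at least 5 times for 14. The median level was also lower in the group (68.4 CPM, against 121 CPM), and its part in the wider spread was not tested.

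Genes close to the limits show where the selection fell. On the mean, Tmem185b at 50.4, Tbc1d20 at 50.5 and Mri1 at 50.9 CPM were just inside, and Zfp524 at 49.2, Eef1akmt2 at 49.1 and Gm17018 at 48.4 CPM just outside. On the lowest B value, Praf2 at 11.3 and Arsa at 15.0 CPM were inside, and Snrpn at 8.30, Parp9 at 4.86 and Aatf at 4.05 CPM outside. On the highest A value, Stxbp3 at 0.954, Sugp1 at 0.776 and Pgs1 at 0.715 CPM were inside, and 2610507B11Rik and Ing3 at 1.04 and Blcap at 1.05 CPM outside. The mean alone kept out 103 further genes, so the group is the upper end of a longer series: a mean of at least 25 CPM gave 140 genes and a mean of at least 100 CPM gave 11. If the mean of 50 CPM is taken over all 6 libraries, 11 genes remain.

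None of the 60 genes was in any of 12 marker lists for basophils and other blood and tissue cells. Every listed gene that met the limits had been left out by name, so this absence follows from the choice of genes. These were 5 genes of the basophil list, given below, and Camp of the neutrophil list. Of the 73 matched genes of the basophil list, 28 were on in every B library, and 5 of these (17.9%) were under 1 CPM in every A library: Prss34, Cpa3, Cd200r3, Fcer1a and Adora2b. All 5 are among the genes left out by name. The other 23 include Mcpt8, which missed the limit at 0.762, 0.681 and 1.28 CPM in A, and 19 genes at or above 1 CPM in every A library. Among the latter, Ccl6, a chemokine, was at 1966, 1927 and 2486 CPM in set A, against 5284, 4026 and 4324 CPM in set B, and Hdc, the histamine-forming enzyme, at 37.96, 62.2 and 267 CPM in set A, against 685, 467 and 359 CPM in set B. Not all of the 19 were higher in B. Clec12a was at 382, 609 and 336 CPM in set A, against 304, 293 and 221 CPM in set B. For others, such as Cd9, the sets overlapped. Basophil genes off in only part of A were Cd63, a granule membrane protein, at 0.544, 126 and 2.36 CPM in A, Bhlhe40, a transcription factor, at 0.127, 175 and 1.58 CPM, and Nfil3, another transcription factor, at 0.145, 0.0757 and 63.2 CPM. These 3 were at 29.1 CPM or more in every B library.

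Markers of some other cells also differed between the sets. The summed level of the 23 neutrophil genes was 3373 to 11181 CPM in A and 13898 to 25343 CPM in B, that of the 17 T cell genes 1099 to 1469 CPM in A and 398 to 770 CPM in B, and that of the 11 erythroid genes 513 to 697 CPM in A and 196 to 232 CPM in B. The 12 platelet genes summed to 1660 to 1903 CPM in A and 854 to 1335 CPM in B. None of these ranges overlapped between the sets. Those of the mast cell, eosinophil, monocyte and macrophage, dendritic cell, B cell, NK cell and ILC2 lists did overlap. Of the lists, 5 neutrophil, 2 T cell and 5 erythroid genes had 0 counts in all A libraries, and 3, 1 and 5 in all B libraries. The summed basophil list was 15137 to 16680 CPM in A and 19485 to 22685 CPM in B, with 15 genes at 0 in all of A and 4 in all of B. Much of that sum came from genes read strongly in both sets, such as Fcer1g, Ccl6 and Srgn. Fcer1g was at 5477, 5531 and 5327 CPM in set A, against 4332, 4766 and 7247 CPM in set B. The lineage genes Mcpt8, Prss34, Cpa3, Cd200r3 and Fcer1a were each at 1.28 CPM or less in every A library. The part of the listed cell types in the 60-gene difference was not tested.

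Ubiquitous cell machinery was read out as 20 families of complexes, of which 7 of the 60 genes are members: Pex19, Atp6v1h, Sumo3, Vps16, Mrps25, Ndufaf3 and Sf3a1. They are 7 of the 284 machinery genes that were on in every B library (2.46%), beside 67 of 3011 for all genes (2.23%). A further 65 machinery genes were under 1 CPM in 1 A library and 18 in 2 A libraries. In the opposite direction, 200 machinery genes were on in every A library, of which 7 were under 1 CPM in 1 B library and 0 in 2 or 3. Of machinery genes with a mean of at least 50 CPM over all libraries, 54, 37 and 22 of 302 were under 1 CPM in A replicates 1, 2 and 3, and 16, 8 and 0 in B. As a share of values this was 12.5% in A and 2.65% in B, beside 12.2% and 3.42% over all 3288 genes at that mean. These counts include Pex19, Atp6v1h and Sumo3, whose A values the choice of genes fixed. The mitochondrial ribosome had 33 of 168 values under 1 CPM in A and 7 of 168 in B, and the proteasome 10.6% of its values in A and 0.813% in B. Families differed in this: Mediator had 1 of 18 values under 1 CPM in each set, and eIF3 had 1 of 33 in A and 0 in B.

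The mirrored rule, on in A and off in B, found 3 genes. Ccdc92 (ENSMUSG00000037979), a coiled-coil protein, was at 81.2, 129 and 98.4 CPM in set A, against 0.161, 0.169 and 0.188 CPM in set B. Kcnip3, a calcium sensor that also acts as a transcriptional repressor, was at 110.5, 44.2 and 22.6 CPM in set A, against 0.402, 0.101 and 0.297 CPM in set B. Ndrg1, a gene induced by hypoxia and stress, was at 46.3, 38.2 and 88.6 CPM in set A, against 0.221, 0 and 0 CPM in set B. The directions also differed for genes off in fewer libraries. Of the 3011 genes on in every B library, 687 (22.8%) were under 1 CPM in 1 A library, 271 (9.0%) in 2 and 67 (2.23%) in all 3. Of the 2202 genes on in every A library, 165 (7.49%) were under 1 CPM in 1 B library, 24 (1.09%) in 2 and 3 (0.136%) in all 3.

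**Figure D3:**
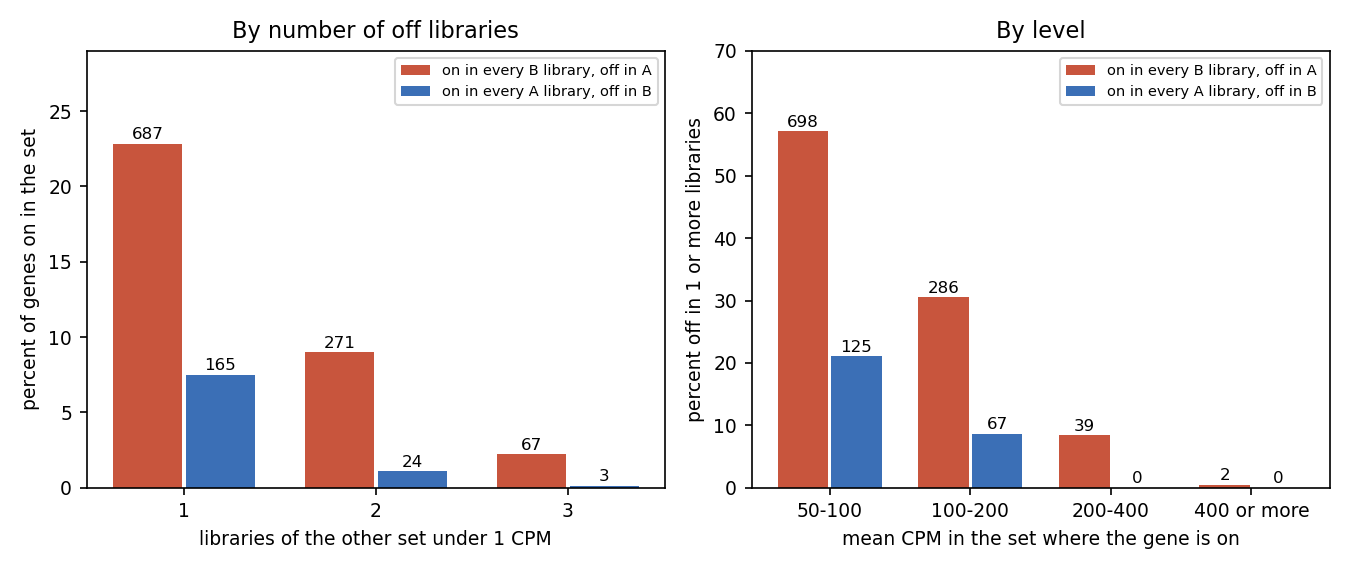
Left, the percent of genes on in every library of a set that were under 1 CPM in 1, 2 or 3 libraries of the other set, with gene numbers above the bars, by direction. Right, the percent off in 1 or more libraries by mean CPM in the set where the gene is on: for genes on in B it falls from 57.1% at 50 to 100 CPM to 0.514% at 400 CPM or more.

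Near-zero values were more frequent at lower levels. Among genes on in B with a mean of 50 to 100 CPM, 57.1% were under 1 CPM in at least 1 A library and 4.42% in all 3. At 100 to 200 CPM the shares were 30.6% and 1.28%, at 200 to 400 CPM 8.42% and 0%, and at 400 CPM or more 0.514% and 0.257%. The last share is 1 gene of 389, Prss34, left out by name. None of the 60 genes had a mean of 200 CPM or more in B. For genes on in A the share off in at least 1 B library was 21.1% at 50 to 100 CPM, 8.66% at 100 to 200 CPM and 0% above, at 0 of 463 and 0 of 373 genes.

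Single libraries differed in how often they missed a gene that all others read. Of the genes with a mean of at least 50 CPM and a minimum of 10 CPM in the other 5 libraries, 357 of 2338 (15.3%) were under 1 CPM in A replicate 1, 238 of 2212 (10.8%) in A replicate 2 and 111 of 2078 (5.34%) in A replicate 3. In B it was 98 of 2086 (4.70%) in replicate 1, 34 of 2002 (1.70%) in replicate 2 and 2 of 1959 (0.102%) in replicate 3. The libraries with fewer genes read had the larger shares, except that A replicate 3 and B replicate 1, with 11281 and 11141 genes, stood in the opposite order. The number of genes read thus moved with the share missed between and within the sets. A gene with no count in a library enters both measures, so they are not independent and must in part move together. The part of the number of genes read in the 60 genes was not tested.

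**Figure D4:**
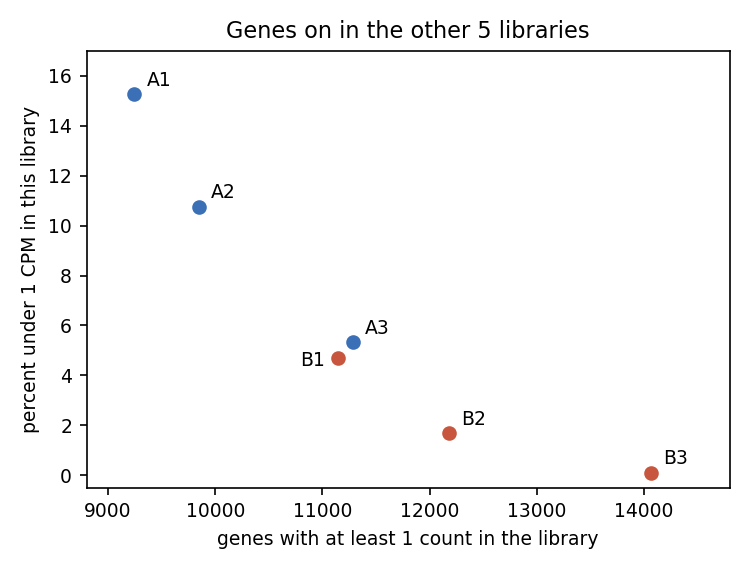
For each library, the percent of genes on in the other 5 libraries that were under 1 CPM in it, against how many genes had any count there (blue, set A, and red, set B). A replicate 1 sits highest at 15.3% with 9242 genes, and B replicate 3 lowest at 0.102% with 14066 genes.

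Each A library also set the size of the group. Without A replicate 1, 2 or 3 the rule gave 99, 150 or 199 genes, and without B replicate 1, 2 or 3 it gave 80, 77 or 107. All 60 remained when an A library was left out, as they must, and 40, 49 and 58 remained without B replicates 1, 2 and 3. The mirrored rule gave 11, 16 and 9 genes without A replicates 1, 2 and 3, and 5, 9 and 19 without B replicates 1, 2 and 3. In each of these 6 omissions more genes were on in B and off in A than the reverse. The longest annotated transcript (GENCODE M21) had a median of 2996.5 bases over the 60 genes and 2472.5 bases over the genes on in every B library, with GC content of 49.2% and 49.5%.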

How the data were processed

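The authors deposited raw counts per Ensembl gene for 6 libraries, 1 column each. Programs named in the submitters' processing notes, without their roles, are cutadapt 1.9 and HISAT2 2.2.1, and DESeq2 is listed too. The counter, genome build, annotation and strand setting were not given in the sources used here. Deposited counts of 4 (5211 values) were far more common than 3 (819) or 5 (660), so the fragments behind a count are not known.

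CPM was computed from column totals. Symbols were matched for 55141 of 55401 identifiers. EdgeR 4.0.16 in R 4.3.3 (filterByExpr, TMM, glmQLFit with robust=TRUE, glmQLFTest, Benjamini-Hochberg) gave the calls, with DESeq2 1.42.0 and limma-voom with sample quality weights (limma 3.58.1) as alternatives, each tested on simulated data, where DESeq2 called unchanged genes more often than the other tools did and edgeR and limma-voom recovered few of the smaller changes. Other settings changed the limits of the rule, the scaling or the libraries used.

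Members and lists were chosen with earlier results of these data known. Roles and partner genes were assigned after the members' values were seen. Genes named are those with the highest mean or lowest value in B, the steadiest and least steady, members of a list or family, those next to a limit, the mirrored genes and those left out by name. A further part of that rule, the genes with the smallest edgeR p, was not used, because the same contrast chose the genes. The remaining members, and the partner and basophil genes given with values, were named after their values were seen. Of the 60 members, 1 is counted in the totals but not reported here by name. Promoter windows came from RefSeq tables on GRCm38.p6, matched by symbol. Smart-seq2 reads carry no molecular identifiers, so floors cover counting error only.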

Additional observations from a re-analysis of the deposited data

How the results depend on the processing

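The 60 genes on in B and off in A became 54 with TMM scaling, 52 with RLE scaling, 54 with off under 0.5 CPM, 72 under 5 CPM, 61 with on at 5 CPM and 44 at 25 CPM. They became 11 with the mean taken over all 6 libraries, 4 with off at 0 counts, 140 with a mean of 25 CPM and 11 with a mean of 100 CPM, each by the construction of the setting. Leaving out 1 library gave 77 to 199 genes. The 3 mirrored genes became 1 with the mean over all 6 libraries, 0 with off at 0 counts, 5 with a mean of 25 CPM and 1 with a mean of 100 CPM, and 5 to 19 with 1 library left out. Under every setting run, more genes were on in B and off in A than the reverse.

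EdgeR called 2 of 9196 genes, neither of them in the group, and 0 of the 60. DESeq2 called 1218 of 9270 genes and 59 of the 59 tested in the group, and limma-voom 202 of 9196 and 34 of 60. The same contrast chose the group, so nothing is read from these counts. Leaving out 1 library gave 0 to 1 calls by edgeR and 0 in the group. Replicates with the same number did not deviate together (correlations of -0.0241 to 0.0280), and with a replicate block edgeR called 0 genes and 0 of the group. The depth limits the A values: a count of 0 allows up to 0.0544 to 0.0650 CPM only if each count is a separate fragment, and more if 1 fragment adds several counts.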
